A study of Mus musculus with 37 samples.

Results

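The comparison set knockout (KO) mammary glands at day 7 of pregnancy (P7) against KO glands at day 3 (P3). Its members were the 8 of 37 arrays whose titles name a PTP1B KO gland at P7 (5 arrays) or P3 (3 arrays). PTP1B is the tyrosine phosphatase encoded by Ptpn1. It removes phosphate from the insulin receptor and from JAK2, the kinase that carries the prolactin signal. The series covers wild-type (WT) and KO glands of nulliparous females in oestrus (P0) and at days 3, 7, 10 and 15 of pregnancy, and its title asks how the lack of PTP1B affects the gland's development and differentiation.

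Both groups came from PTP1B-/- females on the FVB strain after at least 7 generations of backcrossing, mated at 12 weeks of age and given no treatment. The deletion is carried at both stages, and the labels name no Cre or other tissue-specific driver. The WT glands used for comparison (PTP1B +/+, 4 arrays at P7 and 3 at P3) were of the same strain. Each sample is total RNA of a gland, so epithelium, fat, vessels, connective tissue and immune cells are measured together, and fewer cells of a type cannot be told apart from less RNA per cell. The labels do not say whether replicates are separate animals. If they are not, the p-values below measure technical spread.

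Early pregnancy is when progesterone and prolactin turn the virgin duct tree into a branched and budding one. Progesterone acts through its receptor in a subset of luminal cells, which release RANKL (Tnfsf11) and WNT ligands to their neighbours. Prolactin acts through JAK2 and STAT5, which switch on milk protein genes and the factor Elf5. A layer of contractile myoepithelial cells on a basement membrane surrounds the luminal cells, and capillaries and fibroblasts of the fat pad expand with them.

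Values are log2 intensities, so a difference of 1 is a doubling of signal. The words rose, fell and called are kept for genes with an adjusted p below 0.05 (limma, Benjamini-Hochberg over 16865 genes), and differences are P7 minus P3 ± SE. Medians of the 8 arrays lay between 6.62 and 6.68, and the number of arrays limits the precision. Ptpn1 (probe set 10478897) read 5.73, 5.94 and 5.92 in the P3 arrays and 5.67, 5.46, 5.79, 6.06 and 5.57 in the P7 arrays. All 8 lay below the range of the 18 WT arrays, 7.90 to 9.06. Luminal keratin Krt8 (mean 11.47 at P3 and 11.82 at P7) and the epithelial surface protein Epcam (9.85 and 10.07) were high in both groups. KO P3 replicate 1 and KO P7 replicate 3 carried skeletal muscle transcripts. The score of 32 muscle genes (mean log2 value after centring each gene) was 4.69 and 1.78 in them and -0.41 to -0.10 in the other 6. None of the 32 passed in limma (4 had an unadjusted p below 0.05), and their median difference was -1.43, or -0.11 without those 2 arrays. With KO P3 replicate 2, KO P3 replicate 3 or KO P7 replicate 3 left out, 4, 3 and 1 muscle genes fell. KO P3 replicate 3 stood apart in another way, with a mitosis score of -1.58 (0.16 to 0.86 in the other 7) and the highest brown adipocyte score, 1.80.

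**Figure D1:**
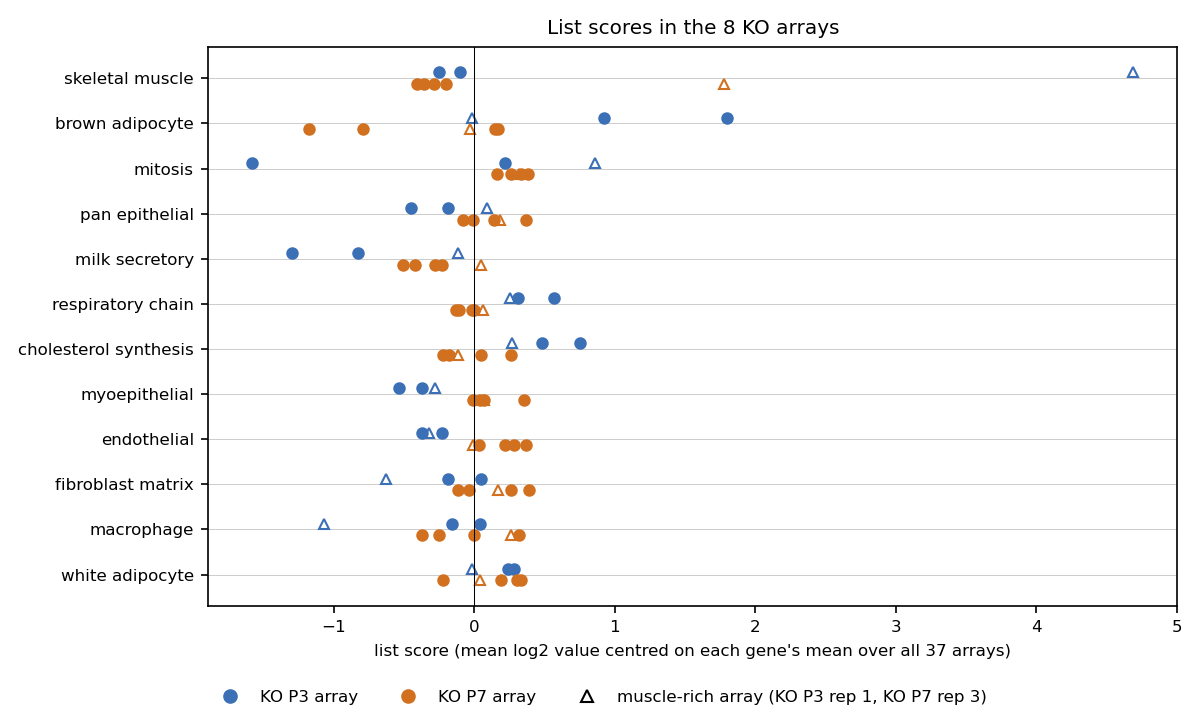
Scores of 12 gene lists (x axis, mean log2 value after centring each gene over the 37 arrays) in each KO P3 array (blue) and KO P7 array (orange), with the 2 muscle-rich arrays as open triangles. Muscle stands at 4.69 and 1.78 in those arrays, mitosis at -1.58 in KO P3 replicate 3, and the myoepithelial, endothelial and respiratory chain scores of the stages do not overlap. Cholesterol synthesis scores do not overlap either, but narrowly (lowest 0.27 at P3, highest 0.26 at P7).

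Between P3 and P7, 1613 genes rose and 1235 fell, which is 9.56% and 7.32% of the 16865 tested. These shares are the background for the list counts below, and several lists lie near them. The median difference over all genes was -0.004. Of the called genes 82 rose and 64 fell by more than 1 on the log2 scale. The P3 and P7 arrays did not overlap in 2399 of the 2848 called genes. A lack of overlap is therefore common among called genes and does not set apart the genes named below. Its share over all 16865 genes tested was not counted. Without both muscle-rich arrays 1275 rose (7.56%) and 1154 fell (6.84%). Of the 2848 calls 1971 were also called without them, and all 2848 had the same sign. Leaving out KO P3 replicate 3 had the largest effect of the 8 single arrays, with 1069 rises and 786 falls. A call held in all 8 fits with 1 array left out and in the fit without both muscle-rich arrays for 1032 genes, 630 higher and 402 lower at P7. These 1032, 36.2% of the called genes, are called lasting below.

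Glycam1, a secreted mucin of the pregnant gland, had the largest rise. It read 10.47, 5.92 and 4.68 in the P3 arrays and 10.72, 11.23, 12.27, 11 and 11.17 in the P7 arrays. The groups did not overlap, as a place among the 12 largest rises required, but the muscle-rich KO P3 replicate 1 lay close to the P7 arrays. The difference was 4.25 ± 1.07 (limma adjusted p = 0.00654), 5.73 without both muscle-rich arrays, and leaving out KO P3 replicate 3 ended the call (3.08, limma adjusted p = 0.0851).

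Olah, the thioesterase that ends fatty acid chains at the medium length found in milk, read 6.62, 5.06 and 5.32 at P3 and 9.08, 9.49, 9.24, 7.96 and 8.79 at P7. Every P7 array was higher than every P3 array, and the fold was 9.47 (3.24 ± 0.55, limma adjusted p = 0.000188). Pigr, the receptor that carries antibodies into milk, read 6.89, 5.42 and 5.90 and then 7.27, 7.67, 8.23, 7.01 and 7.73. It rose by 1.51 ± 0.34 (limma adjusted p = 0.00242), again with no overlap.

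Csn2 and Wap, genes of major milk proteins, did not pass. Csn2, beta-casein, read 13.03, 10.94 and 12.11 at P3 and between 12.88 and 13.12 at P7. Wap, whey acidic protein, read 10.63, 6.80 and 7.65 at P3 and 7.83, 8.51, 10.16, 8.68 and 8.27 at P7, with its highest values in the 2 muscle-rich arrays. The differences were 0.93 ± 0.49 for Csn2 (limma adjusted p = 0.21) and 0.33 ± 0.67 for Wap (adjusted p = 0.814). In both genes the P3 arrays spread more widely than the P7 arrays. Without the muscle-rich KO P3 replicate 1 they differed by 1.43 (limma adjusted p = 0.0702) and 1.46 (adjusted p = 0.133). Without KO P3 replicate 2 it was 0.39 and -0.45. Csn1s1, another casein, was not called with all arrays. With 1 array left out it rose only without KO P3 replicate 1 (1.07, limma adjusted p = 0.0463). Of 27 milk and secretory genes, 4 rose (Olah, Pigr, Glycam1 and Xdh, an enzyme of the milk fat globule) and 1 fell (Ltf, lactoferrin, by 1.40 ± 0.48). The list median was 0.29, and without both muscle-rich arrays 4 rose, 1 fell and the median was 0.38. The 1 fall was lost without KO P3 replicate 1, 2 or 3 or KO P7 replicate 1 or 2, and Olah and Pigr were the lasting calls.

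The STAT5 site is known from milk gene promoters, so the 250 bases before the start are shown for Glycam1 and for beta-casein. They are from RefSeq on GRCm38.p6, 5′ to 3′ on the gene's strand. Capitals mark the palindrome TTCNNNGAA, the sequence bound by STAT factors.
Glycam1 (chr15:103565082-103565331, minus strand): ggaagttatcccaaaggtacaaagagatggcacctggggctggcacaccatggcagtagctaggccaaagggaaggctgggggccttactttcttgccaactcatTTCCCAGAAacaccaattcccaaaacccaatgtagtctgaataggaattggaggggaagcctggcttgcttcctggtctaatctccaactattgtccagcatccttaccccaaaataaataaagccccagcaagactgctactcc
Csn2 (chr5:87699426-87699675, minus strand): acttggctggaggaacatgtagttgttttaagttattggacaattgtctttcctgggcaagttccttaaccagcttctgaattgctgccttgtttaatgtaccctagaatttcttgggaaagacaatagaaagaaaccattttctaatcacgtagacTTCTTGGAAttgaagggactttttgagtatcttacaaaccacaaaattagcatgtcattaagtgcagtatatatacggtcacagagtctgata
The palindrome begins 145 bases before the start in Glycam1 and 93 bases before it in Csn2. It was found, on either strand, in 4 of the 19 milk genes with a promoter in the table (21.1%), beside 8.13% of all 27025 genes. Among the risen genes 7.24% held it (93 of 1284 with a promoter) and among the fallen 6.8% (69 of 1014), beside 7.34% of the genes tested. A match is a description of letters and shows no binding.

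Of 15 genes of prolactin and STAT5 signalling 3 rose and 0 fell, with a median of 0.22 (4 rose and 1 fell without both muscle-rich arrays, median 0.27). The rises were Igf2, Tnfsf11 and Socs2, a STAT5-induced inhibitor of cytokine signalling (0.47 ± 0.15, limma adjusted p = 0.0321). The Socs2 call was lost without KO P3 replicate 1 (0.33) or KO P7 replicate 1 or 5. Stat5a, the main STAT of the gland, differed by 0.22 (adjusted p = 0.149), and Cish, another STAT5-induced inhibitor, by -0.71 (adjusted p = 0.0947). Elf5 read 10.42, 9.40 and 9.21 at P3 and 10.54, 10.69, 10.66, 10.14 and 10.64 at P7. Its groups overlapped through KO P3 replicate 1, and its difference of 0.86 ± 0.34 did not pass (limma adjusted p = 0.0776; 1.20 and 0.0349 without both muscle-rich arrays).

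Igf2, a growth factor acting on the IGF1 and insulin receptors, was a clear rise. It read 7.91, 6.88 and 6.74 at P3 and 8.76, 8.70, 9.12, 8.60 and 9.53 at P7. No P7 array fell within the P3 range, and the rise was 1.76 ± 0.22 (limma adjusted p = 8.50e-06). It belonged to a list of 24 insulin, IGF and leptin genes, the pathway on which PTP1B acts, of which 9 rose and 1 fell with a median of 0.27 (7 and 1, median 0.20, without both muscle-rich arrays).

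Below the receptors, Irs2, an adaptor that passes on the insulin signal, read 8.10, 8.31 and 7.98 at P3 and 9.18, 9.51, 9.19, 8.84 and 9.02 at P7. Its groups did not overlap (1.02 ± 0.20, limma adjusted p = 0.000884). Foxo3 and Foxo1, transcription factors held out of the nucleus by insulin signalling, rose by 0.85 ± 0.14 (adjusted p = 0.000186) and 0.80 ± 0.16 (adjusted p = 0.00102). The other rises were Igf1r, Stat3 and the IGF-binding proteins Igfbp2, Igfbp4 and Igfbp7, by 0.36 to 0.89, and the fall was the kinase Akt2 (-0.37), whose call was lost without KO P3 replicate 2 or 3. Igf2, Foxo1, Foxo3, Irs2 and Igfbp7 were the lasting calls. Insr, the insulin receptor itself, differed by 0.18 (adjusted p = 0.514) and Lep, leptin, by -0.13 (adjusted p = 0.898).

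Of 12 progesterone receptor targets 4 rose and 0 fell (median 0.14; 3 rose without both muscle-rich arrays, median 0.31). Tnfsf11, the RANK ligand, read 9.29, 9.03 and 8.76 at P3 and 10.15, 9.72, 9.57, 9.15 and 9.65 at P7. KO P7 replicate 4 lay within the P3 range, and the difference was 0.62 ± 0.16 (limma adjusted p = 0.00834). Rspo1, a secreted enhancer of WNT signalling, read 10.16, 9.49 and 7.24 and then 10.71, 10.93, 10.70, 10.43 and 10.71.

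The rise of Rspo1 was 1.73 ± 0.50 (limma adjusted p = 0.0152) and drew on KO P3 replicate 3, without which it was 0.87. Fkbp5, a chaperone induced by steroid receptors, rose by 1.06 ± 0.33 (adjusted p = 0.0268), and Adamts18, a matrix protease, by 0.52 ± 0.18 (adjusted p = 0.0463). None of the 4 calls held without KO P3 replicate 3, and 2 held without KO P7 replicate 2. With 1 array left out, Adamts18 kept its call only without KO P3 replicate 2 or KO P7 replicate 3. Fkbp5 also lost its call without KO P3 replicate 2. Pgr, the receptor, had almost the same mean at both stages (7.65 and 7.64), and Tnfrsf11a, the receptor of RANKL, differed by 0.38 ± 0.17 (adjusted p = 0.139).

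Of 13 targets of the oestrogen receptor 4 fell and 1 rose, with a median of -0.01 (2 fell and 0 rose without both muscle-rich arrays, median -0.05). Foxa1, a factor that opens chromatin for the oestrogen receptor, read 9.48, 9.61 and 9.40 at P3 and 8.49, 8.56, 8.01, 8.38 and 8.65 at P7. Its groups did not overlap (-1.08 ± 0.21, limma adjusted p = 0.000626). Stc2, a secreted glycoprotein, fell by 1.14 ± 0.23 (adjusted p = 0.00118), and these were the lasting calls. Cited1 (-0.92 ± 0.29) and Myb (-0.73 ± 0.20) fell too, and Igfbp4 rose (0.44), but Cited1 lost its call without any of the P3 arrays or KO P7 replicate 3, and Myb without KO P3 replicate 2. The rise of Igfbp4 was lost without KO P3 replicate 1 or 3 or KO P7 replicate 1, 2 or 4, and 2 falls held without KO P3 replicate 2. Esr1, the receptor, differed by 0.17 (adjusted p = 0.559).

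Among 13 ERBB receptors and EGF ligands 2 rose and 2 fell (median -0.08; 1 rose and 0 fell without both muscle-rich arrays, median 0.07). Erbb4, the neuregulin receptor required for lobule formation, read 6.25, 6.14 and 6.17 at P3 and 8.44, 7.65, 7.87, 7.77 and 8.64 at P7. The gap between the groups was wider than the range of either (1.89 ± 0.28, limma adjusted p = 4.24e-05). Erbb3, which pairs with other ERBB receptors, rose by 0.84 ± 0.23 (adjusted p = 0.0103; 0.72 and 0.0743 without both muscle-rich arrays). The falls were 2 ligands, Ereg (-0.66 ± 0.20) and Hbegf (-0.29 ± 0.10), and neither held without KO P3 replicate 1 or 2. Without KO P3 replicate 3 or KO P7 replicate 1, 3 members rose and 1 fell, and 1 fall also held without KO P7 replicate 2, 3 or 5.

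Of 22 WNT pathway genes 2 rose and 3 fell with a median of 0.10 (2 and 3 without both muscle-rich arrays, median -0.04). Over all genes tested 9.56% rose and 7.32% fell. Lgr4, a receptor of R-spondins, rose by 0.71 ± 0.16 (limma adjusted p = 0.0033) and was the lasting call. Wnt7b (-0.38), Wnt11 (-0.32) and Wnt2 (-0.61) fell, and no fall held without KO P3 replicate 2. Without KO P3 replicate 3, 1 gene rose and 2 fell, and 1 fall held without KO P7 replicate 1 or 2. Wnt4, the progesterone-induced WNT, differed by -0.19 (adjusted p = 0.422).

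Several genes of the myoepithelial layer rose. Myh11, smooth muscle myosin, read 9.13, 8.90 and 9.20 at P3 and 10.50, 10.36, 10.29, 10.23 and 10.70 at P7. Mylk, the kinase that triggers its contraction, read 7.81, 7.81 and 8.09 and then 8.99, 8.96, 8.95, 8.87 and 8.93. In neither gene did the groups overlap, and they rose by 1.34 ± 0.19 (limma adjusted p = 2.23e-05) and 1.03 ± 0.12 (adjusted p = 4.32e-06). Of 17 myoepithelial markers 8 rose and 0 fell, with a median of 0.48 (7 rose, median 0.57, without both muscle-rich arrays). The others were Acta2 (0.56 ± 0.10), Itga6 (0.77 ± 0.15), Cnn1, Snai2, Jag2 and Myl9. The contractile genes Myh11, Mylk, Acta2 and Cnn1 are also made by smooth muscle of vessel walls. The basal keratins Krt14 (0.60, adjusted p = 0.101) and Krt5 (0.11, adjusted p = 0.838) did not pass.

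Of 17 endothelial markers 9 rose and 0 fell, with a median of 0.53, and 9 rose without both muscle-rich arrays (median 0.51). Cdh5, the cadherin of endothelial junctions, read 10.46, 10.29 and 10.47 at P3 and 11.16, 11.17, 10.94, 11.38 and 11.02 at P7. The ranges were separate (0.73 ± 0.12, limma adjusted p = 0.00024). Tie1, an endothelial receptor kinase (0.70 ± 0.14), Esam, a junction protein (0.74 ± 0.16), and Eng, a TGF-beta co-receptor (0.53 ± 0.11), rose as well. The other rises were Cldn5, Pecam1, Ptprb, Vwf and Robo4, and 8 of the 9 were lasting.

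Of 17 claudins and other tight junction genes 7 rose and 0 fell (median 0.48; 6 rose without both muscle-rich arrays, median 0.57). Tjp1, the scaffold ZO-1, read 9.80, 9.70 and 9.71 at P3 and 10.49, 10.51, 10.35, 10.37 and 10.39 at P7. It did so with little spread in either group (0.69 ± 0.10, limma adjusted p = 3.75e-05). Cldn5, the claudin of blood vessels, rose by 1.05 ± 0.25 (adjusted p = 0.00425), and it is also one of the endothelial markers above.

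The epithelial scaffolds Cgn (0.82 ± 0.20) and Tjp3 (0.87 ± 0.23) and the claudin Cldn8 (1.08) rose, but only Tjp1 and Cldn5 were lasting. Without KO P3 replicate 3 or replicate 2 the count of rises was 2 or 4. The pan-epithelial list, 20 genes, had 4 rises and 0 falls (median 0.24; 4 without both muscle-rich arrays, median 0.37), led by Ehf, an epithelial ETS factor (1.11 ± 0.30, limma adjusted p = 0.0107). No epithelial call held without KO P3 replicate 3, and 2 held without KO P3 replicate 2 or KO P7 replicate 3 or 5. Epithelial scores were 0.09, -0.19 and -0.45 at P3 and -0.08 to 0.37 at P7. With the epithelial score as a covariate, a choice made after seeing the data, 7 tight junction genes rose and 3 fell. The tight junction genes Cldn3, Cldn4 and Cldn7 are themselves part of that score, so these counts are not independent of it. In the same fit 8 myoepithelial genes rose and 1 fell.

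Several matrix genes rose too. Col1a1, the main fibrillar collagen, read 10.86, 11.01 and 11.08 at P3 and 11.66, 11.75, 11.79, 11.93 and 12 at P7. The groups did not overlap, and it rose by 0.84 ± 0.15 (limma adjusted p = 0.000411). Of 29 fibroblast and matrix genes 14 rose and 0 fell (median 0.41), and 8 rose without both muscle-rich arrays (median 0.24) and without KO P3 replicate 1 alone, or with only the compared groups fitted. KO P3 replicate 1 had the lowest matrix score, -0.63, beside 0.05 and -0.19 in the other P3 arrays. Col1a2, Col3a1 and Postn, a matrix protein of remodelling tissue, were among the 8 lasting calls (0.81 ± 0.14, 0.77 ± 0.14 and 0.57 ± 0.10).

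Of 13 basement membrane genes 8 rose and 0 fell, with a median of 0.50 (7 rose without both muscle-rich arrays, median 0.51, and 4 without KO P3 replicate 3). Lamb1, a laminin chain, read 9.61, 9.80 and 9.77 at P3 and 10.58, 10.55, 10.36, 10.46 and 10.41 at P7. The groups did not overlap (0.75 ± 0.13, limma adjusted p = 0.00022). Col4a2, a chain of the collagen IV network, rose by 0.78 ± 0.17 (adjusted p = 0.00147), and Lamc1 by 0.52 ± 0.13 (adjusted p = 0.00539). Fmod, fibromodulin, which binds collagen fibrils, was no member of these lists and had one of the largest rises. It read 7.15, 6.38 and 6.65 and then 8.79, 8.93, 8.81, 8.44 and 8.88 (2.05 ± 0.23, adjusted p = 1.73e-06).

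**Figure D2:**
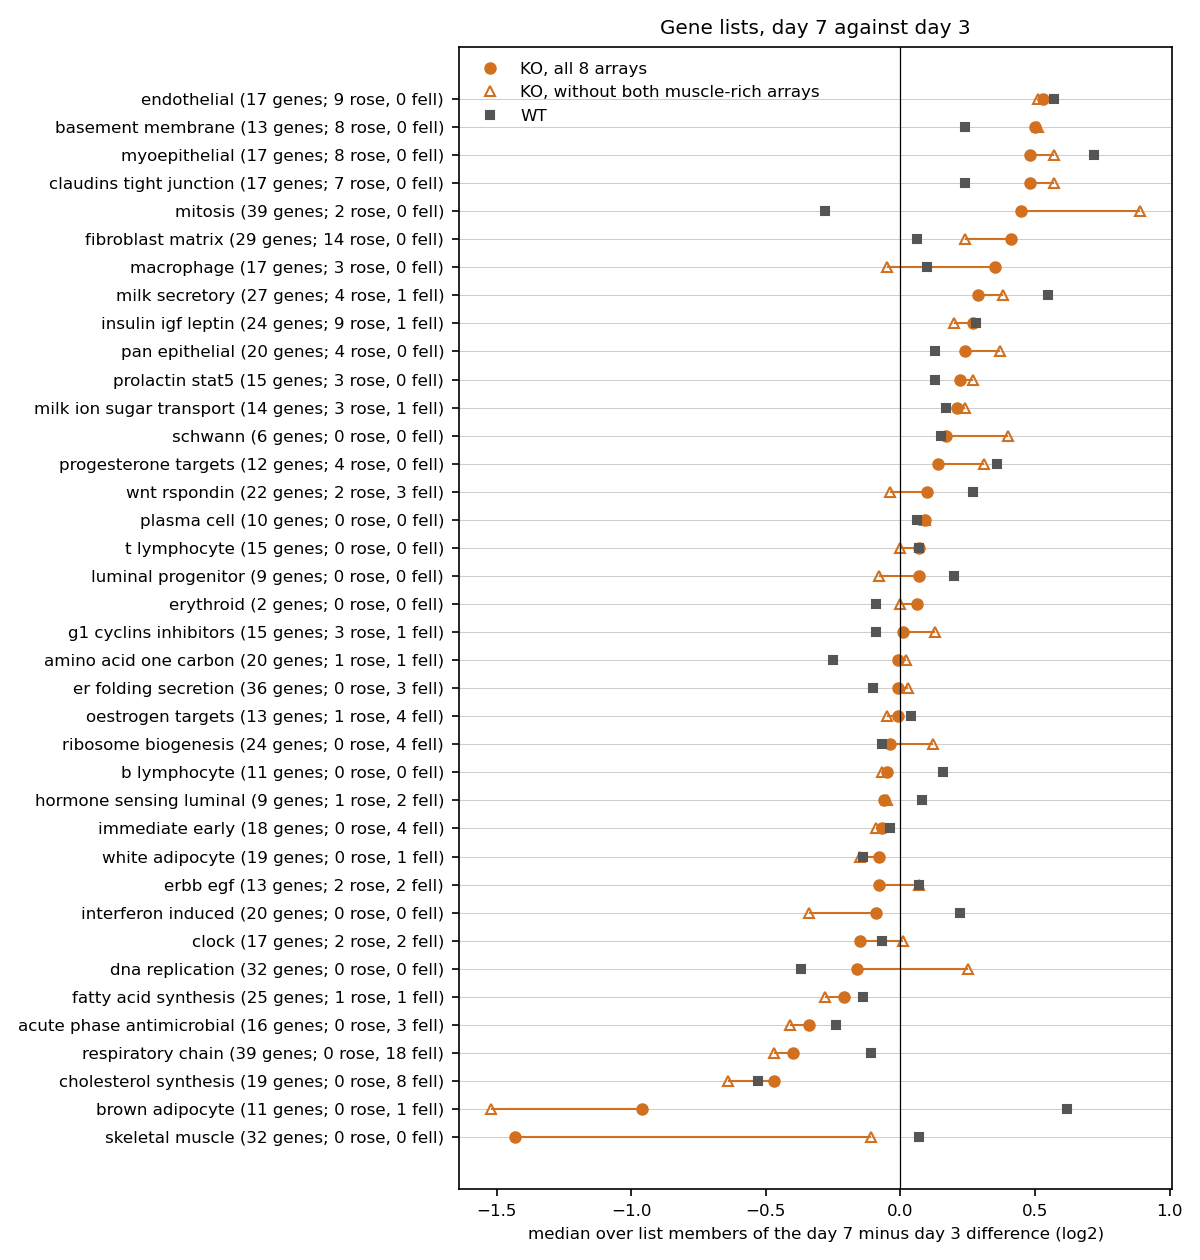
Median P7 minus P3 difference (x axis, log2) of the members of each of 38 gene lists (y axis, with the number of genes tested and called), in KO glands with all 8 arrays (circles) or without both muscle-rich arrays (triangles) and in WT glands (squares). Endothelial genes lie at 0.53 and cholesterol synthesis genes at -0.47 with all arrays, while mitosis, macrophage, brown adipocyte and muscle shift when the muscle-rich arrays are left out.

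Several genes of cholesterol synthesis fell. Mvd, which decarboxylates mevalonate diphosphate, read 8.85, 9.26 and 9.56 at P3 and 7.66, 8.10, 8.23, 8.49 and 8.58 at P7. Msmo1, a sterol methyl oxidase, read 9.34, 9.64 and 10.11 and then 8.25, 8.11, 8.29, 8.83 and 8.50. All P7 arrays lay below all P3 arrays in both, with KO P3 replicate 3 highest, and they fell by 1.01 ± 0.20 (limma adjusted p = 0.00083) and 1.30 ± 0.27 (adjusted p = 0.00121).

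Of 19 cholesterol synthesis genes 8 fell and 0 rose, and all 19 differences were below 0 (median -0.47). Without both muscle-rich arrays 8 fell and the median was -0.64. The others that fell were Cyp51 (-1.15 ± 0.29), Ebp, Hsd17b7, Sc5d, Dhcr7 and Mvk. Mvd and Msmo1 were lasting, while 2 members fell without KO P3 replicate 3 and 5 without KO P3 replicate 2 or KO P7 replicate 1. With only the compared groups fitted, 4 fell. Fatty acid synthesis genes, 25 in all, had 1 rise (Fads1, 0.30 ± 0.10) and 1 fall (Mlxipl, a carbohydrate-sensing factor, -0.97 ± 0.32), with a median of -0.21. Without both muscle-rich arrays 0 rose and 1 fell (median -0.28). The Fads1 call was lost in 5 and the Mlxipl call in 4 of the 8 fits with 1 array left out, among them those without KO P3 replicate 2 and without KO P7 replicate 2.

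Promoters of these genes often hold a CCAAT box, which NF-Y binds and which stands near sterol response elements in known cholesterol genes. The 250 bases before the start are shown for the 3 falls of smallest p, with CCAAT, or ATTGG where the box is on the other strand, in capitals (RefSeq, GRCm38.p6).
Mvd (chr8:122443423-122443672, minus strand): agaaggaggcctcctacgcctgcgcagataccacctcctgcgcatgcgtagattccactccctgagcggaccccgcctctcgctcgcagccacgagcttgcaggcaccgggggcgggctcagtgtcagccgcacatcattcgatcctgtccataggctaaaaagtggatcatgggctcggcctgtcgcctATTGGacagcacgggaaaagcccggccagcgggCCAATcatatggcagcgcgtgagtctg
Msmo1 (chr8:64733579-64733828, minus strand): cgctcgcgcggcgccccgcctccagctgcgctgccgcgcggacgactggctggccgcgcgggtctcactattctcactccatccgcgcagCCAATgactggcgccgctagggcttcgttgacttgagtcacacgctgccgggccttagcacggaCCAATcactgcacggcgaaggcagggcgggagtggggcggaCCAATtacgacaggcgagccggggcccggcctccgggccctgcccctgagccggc
Cyp51 (chr5:4104698-4104947, minus strand): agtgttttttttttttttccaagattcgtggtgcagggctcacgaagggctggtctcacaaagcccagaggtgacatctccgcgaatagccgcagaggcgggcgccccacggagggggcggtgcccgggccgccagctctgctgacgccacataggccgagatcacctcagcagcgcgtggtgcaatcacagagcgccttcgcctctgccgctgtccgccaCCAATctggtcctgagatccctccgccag
The box was found 2 times in Mvd, 3 times in Msmo1 and 1 time in Cyp51. All 15 cholesterol genes with a promoter in the table held at least 1, beside 37.5% of all genes and 38.9% of the genes tested. The shares were 38.2% of the risen and 39.3% of the fallen genes. The mitosis list, whose genes are known for CCAAT boxes too, held it in 26 of 32 promoters (81.2%). These shares are descriptions and show no binding.

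Subunits of the mitochondrial respiratory chain fell as well. Ndufb8, a subunit of complex I, read 10.58, 10.94 and 11.33 at P3 and 9.84, 9.70, 10.02, 9.90 and 9.59 at P7. Ndufs4, another, read 11.47, 11.89 and 11.87 and then 10.81, 10.95, 10.90, 11.02 and 10.66. Neither gene's groups overlapped, and they fell by 1.14 ± 0.22 (limma adjusted p = 0.000598) and 0.88 ± 0.18 (adjusted p = 0.00136).

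Of 39 respiratory chain genes 18 fell and 0 rose, with all 39 below 0 and a median of -0.40. Without both muscle-rich arrays 18 also fell (median -0.47), and without KO P3 replicate 3 it was 8 (median -0.29). Lasting falls were Ndufb8, Ndufs4, Ndufb10, Ndufa4, Ndufa8, Cox7b and Atp5g3, which belong to complex I, complex IV and the ATP synthase.

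The brown adipocyte score was -0.02, 0.92 and 1.80 at P3 and -0.79, -1.18, -0.03, 0.17 and 0.15 at P7, which overlap. In the same arrays the respiratory chain score was 0.25, 0.31 and 0.57 and then -0.02, -0.13, 0.06, -0.00 and -0.11, without overlap. Brown fat is rich in mitochondria, and its part in the fall of respiratory chain genes was not tested. All 11 brown adipocyte genes were below 0 (median -0.96; -1.52 without both muscle-rich arrays), and 1 of them fell, or 2 without both muscle-rich arrays and 3 without KO P3 replicate 1. Ucp1, the uncoupling protein that defines brown fat, read 9.56, 12.04 and 12.72 at P3 and 7.19, 5.73, 9.35, 10.37 and 10.34 at P7. These values spread over many fold within a stage and overlapped, and the difference of -2.84 ± 1.22 did not pass (limma adjusted p = 0.111). The 1 call was Cox7a1, a respiratory subunit of muscle and brown fat, at 11.17, 11.43 and 12.16 and then 8.62, 8.18, 9.44, 9.86 and 9.54 (-2.46 ± 0.69, adjusted p = 0.0134), lost without KO P3 replicate 3 (-2.17). Of 19 white adipocyte genes 1 fell and 0 rose (median -0.08; also 1 without both muscle-rich arrays, median -0.15). It was Adig (-0.72 ± 0.23), whose call was lost without KO P3 replicate 2 or 3 or KO P7 replicate 2, 4 or 5. Adipoq, adiponectin, read 12.42 and 12.39 on average.

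The P3 arrays differed widely in mitosis genes. Their scores were 0.86, 0.22 and -1.58 at P3 and 0.26, 0.16, 0.32, 0.33 and 0.38 at P7. The P7 arrays lay close together between the highest and the lowest P3 arrays. Of 39 genes 2 rose (Cenpf, 0.99 ± 0.31, and Cenpe, 1.13 ± 0.39, both of the kinetochore) and 0 fell, with a median of 0.45. Without both muscle-rich arrays 8 rose (median 0.89), and without KO P3 replicate 1 alone 12. Without KO P3 replicate 3 none rose or fell and the median was -0.30. Without KO P7 replicate 1, or with only the compared groups fitted, none passed either, and without KO P7 replicate 3, 4 or 5 1 rose.

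None of 32 DNA replication genes passed in limma, and none had an unadjusted p below 0.05 (median -0.16; 0.25 without both muscle-rich arrays). Without KO P3 replicate 3, 4 of them fell (median -0.59), among them Tk1, thymidine kinase (-1.01), and Orc6 (-0.52). Of 15 G1 cyclins and inhibitors 3 rose and 1 fell (1 and 1 without both muscle-rich arrays or without KO P3 replicate 1). The list median was 0.01, or 0.13 without both muscle-rich arrays. Cdk6, a G1 kinase, rose by 0.52 ± 0.13 (limma adjusted p = 0.00505) and the inhibitor Cdkn2b fell by 0.79 ± 0.17 (adjusted p = 0.00131), and these were lasting. The other rises were inhibitors, Cdkn1c (0.65 ± 0.18, limma adjusted p = 0.0107) and Cdkn1b (0.33 ± 0.11, adjusted p = 0.0401). Both of these calls were lost without KO P3 replicate 1, and that of Cdkn1b also without KO P3 replicate 3, among other arrays.

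Several secreted proteins were among the 12 largest falls. Itih2, a protein that cross-links hyaluronan, read 9.38, 9.47 and 8.98 at P3 and 6.78, 7.73, 6.39, 7.58 and 6.09 at P7. R3hdml, a secreted protein of the CAP family, read 8.25, 8.39 and 8.74 and then 6.63, 6.79, 6.34, 6.65 and 6.21. The chemokine Cxcl15 read 8.56, 8.03 and 8.13 and then 6.67, 6.14, 6.08, 6.48 and 5.99. In all 3 the stages did not overlap, as a place among the 12 largest falls required. The differences were -2.36 ± 0.35 (limma adjusted p = 3.75e-05), -1.93 ± 0.25 (adjusted p = 8.59e-06) and -1.97 ± 0.33 (adjusted p = 0.00016).

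Fgg, the fibrinogen gamma chain, had its lowest P3 value in KO P3 replicate 1 (7.36, 9.02 and 9.12, then 6.62, 5.59, 5.65, 7.26 and 7.05 at P7). The difference was -2.06 ± 0.43 (limma adjusted p = 0.00137). Arg1, arginase, read 7.52, 6.70 and 7.53 and then between 5.52 and 5.68 (-1.64 ± 0.20, adjusted p = 6.63e-06), and Defb1, an epithelial defensin, fell by 1.71 ± 0.40 (adjusted p = 0.00363). Of 16 acute phase and antimicrobial genes 3 fell and 0 rose (median -0.34; 2 fell without both muscle-rich arrays, median -0.41). They were Cxcl15, Lcn2 and Ltf, and 1 fell without KO P3 replicate 1 or 2 or KO P7 replicate 1. The call of Lcn2, lipocalin 2 (-0.55 ± 0.19, limma adjusted p = 0.0386), was lost with any array left out other than KO P7 replicate 2. That of Ltf was lost without any of the P3 arrays or KO P7 replicate 1 or 2.

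Among rises outside the lists was Capn6, a calpain without protease activity that stabilises microtubules. It read 6.33, 6.57 and 6.06 at P3 and 8.52, 8.27, 8.38, 8.98 and 9.33 at P7 (2.37 ± 0.27, limma adjusted p = 1.73e-06). Reln, the secreted glycoprotein reelin, read 7.94, 7.46 and 6.92 and then 9.49, 8.89, 8.94, 8.93 and 9.42 (1.69 ± 0.21, adjusted p = 7.04e-06). Every P7 array exceeded every P3 array in both genes. Slc5a9, a sugar transporter, rose by 1.87 ± 0.24, Rnase1, a secreted ribonuclease, by 1.78 ± 0.35 and Nat8f5, of the acetyltransferase family, by 1.93 ± 0.25, and all of these were lasting. The P3 mean of Nat8f5 was 4.96, the value of the filter on dim genes, so the size of its rise is uncertain. Mest, an imprinted gene, read 7.73, 7.95 and 6.47 and then 9.06, 9.73, 8.68, 9.80 and 9.26, and its rise (1.92 ± 0.51, adjusted p = 0.00869) was lost without KO P3 replicate 3.

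**Figure D3:**
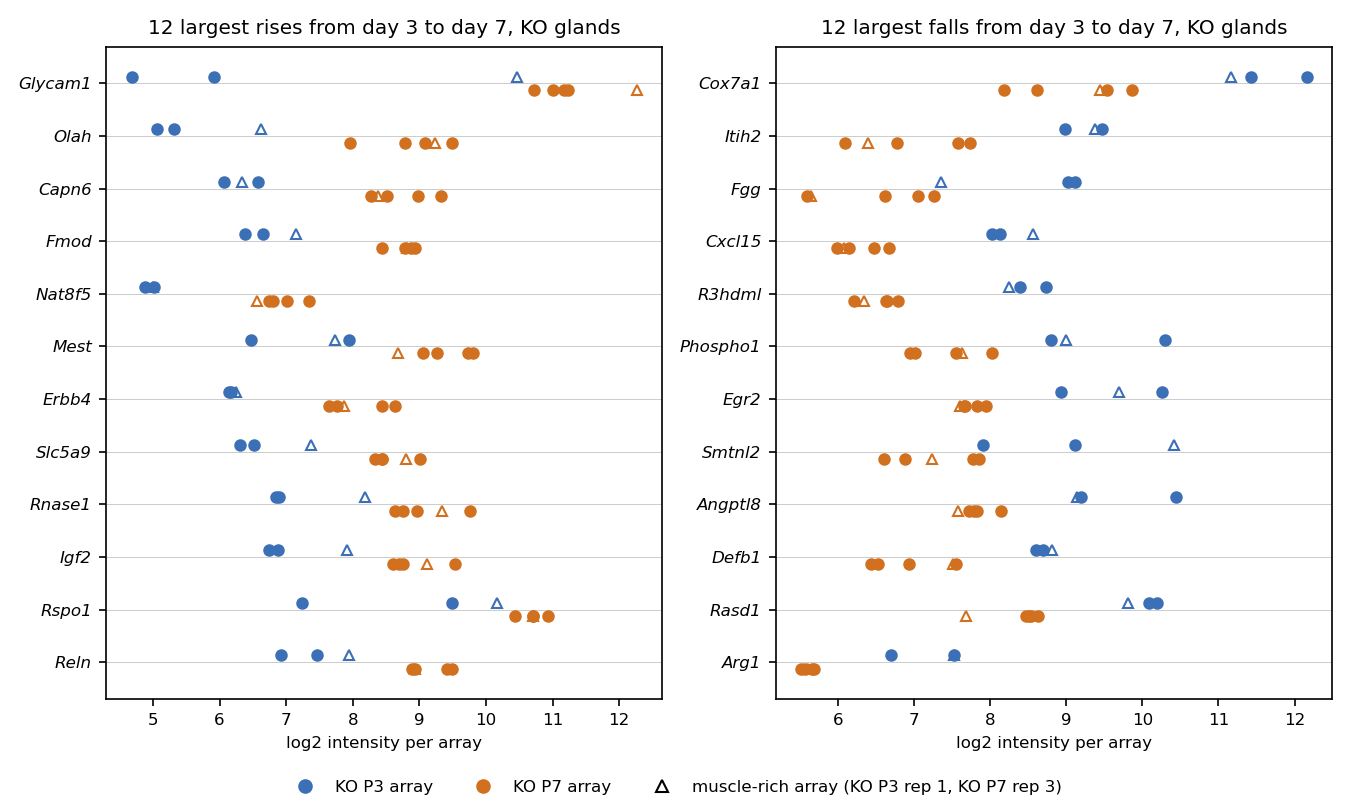
Log2 intensity (x axis) of the 12 largest rises and the 12 largest falls in each KO P3 array (blue) and KO P7 array (orange), with the 2 muscle-rich arrays as open triangles. Groups do not overlap, as the choice of genes required, and Glycam1 in KO P3 replicate 1 stands at 10.47, far above the other P3 arrays.

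Of 14 transporters of milk ions and sugars 3 rose and 1 fell (median 0.21; 3 and 1 without both muscle-rich arrays, median 0.24). Over all genes tested 9.56% rose and 7.32% fell. Aqp5, a water channel of ducts, read 8.89, 8.74 and 8.78 at P3 and 7.55, 7.62, 7.50, 7.61 and 7.85 at P7. It was low in every P7 array (-1.17 ± 0.16, limma adjusted p = 1.13e-05). Slc30a4, a zinc exporter into milk, rose by 0.69 ± 0.15 (adjusted p = 0.00147), and Atp2b1, a calcium pump, by 0.43 ± 0.10 (adjusted p = 0.00445). The rise of the potassium channel Kcnn4 (0.94 ± 0.33) was lost without KO P3 replicate 2 or 3 or KO P7 replicate 1, 2, 3 or 5. It was 0.52 without KO P3 replicate 3 and 1.41 without KO P3 replicate 1. Of 36 genes of folding and secretion 3 fell and 0 rose (median -0.01; 3 without both muscle-rich arrays, median 0.03). The share of falls was near the 7.32% of all genes. Spcs1, a signal peptidase subunit, was lasting (-0.41 ± 0.07, limma adjusted p = 0.000321), and 1 gene fell without KO P3 replicate 2. Of 24 ribosome biogenesis genes 4 fell (median -0.04), while without both muscle-rich arrays 1 rose and 0 fell (median 0.12); without KO P3 replicate 1 alone 1 rose and 1 fell.

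Immediate early genes, which respond within minutes to signals and to handling of tissue, had 4 falls and 0 rises among 18 (median -0.07; 3 falls without both muscle-rich arrays, median -0.09). Egr2 read 9.69, 10.26 and 8.93 at P3 and 7.66, 7.83, 7.60, 7.95 and 7.67 at P7. Its P7 arrays were tightly grouped and below all P3 arrays (-1.88 ± 0.28, limma adjusted p = 4.11e-05). Egr1 (-0.91 ± 0.23), Ier3 (-0.60 ± 0.15) and Egr3 (-0.42 ± 0.15) fell less, and 2 of the 4 falls held without KO P3 replicate 2. The Egr3 fall was also lost without KO P3 replicate 1 (-0.26) or KO P7 replicate 1, 2 or 4. Only Egr2 was lasting.

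Of 17 circadian clock genes 2 rose and 2 fell (median -0.15; 2 and 1 without both muscle-rich arrays, median 0.01). Bhlhe40, a clock repressor, read 9.14, 9.13 and 9.68 at P3 and 7.71, 7.89, 7.63, 7.79 and 7.95 at P7. Per1, the repressor also induced by glucocorticoids, read 8.19, 8.63 and 8.31 and then 9.44, 9.58, 9.28, 9.33 and 9.39. In both the stages were separate, with differences of -1.52 ± 0.20 (limma adjusted p = 1.20e-05) and 1.02 ± 0.24 (adjusted p = 0.00365). The hour of collection is not given in the labels, so stage and time of day cannot be told apart. Rora (0.47 ± 0.15) and Nr1d1 (-1.28 ± 0.41) also passed, and neither held without KO P3 replicate 2 or 3. The Rora rise was also lost without KO P7 replicate 1 or 2, and the Nr1d1 fall without KO P7 replicate 3, 4 or 5.

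None of 11 B cell or 15 T cell genes passed in limma, and none had an unadjusted p below 0.05 (medians -0.05 and 0.07). None of 10 plasma cell genes passed either, with 1 at an unadjusted p below 0.05. Of 17 macrophage genes 3 rose with all arrays (median 0.35) and 1 without both muscle-rich arrays (median -0.05). The macrophage score was -1.07 in KO P3 replicate 1, and -0.37 to 0.32 in the other 7 arrays. Cd163 and Csf1r were not called without that array (0.34 and 0.28) or without KO P7 replicate 3, 4 or 5, nor Cd163 without KO P7 replicate 1. The lasting macrophage call was Mertk, a receptor that takes up dying cells, at 8.41, 8.48 and 8.46 and then 9.76, 9.81, 9.47, 9.39 and 9.25 (1.09 ± 0.20, limma adjusted p = 0.000411).

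The remaining lists had few calls, to be read beside 9.56% rises and 7.32% falls over all genes. Of 20 genes of amino acid and one-carbon metabolism 1 rose (Slc38a2, an amino acid transporter, 0.28) and 1 fell (Psph, a serine synthesis enzyme, -0.58), as they did without both muscle-rich arrays. The rise was lost without KO P3 replicate 2 or 3 or KO P7 replicate 1, 2 or 5, and the fall without KO P3 replicate 3. Of 9 genes of hormone-sensing luminal cells 1 rose (Tnfsf11) and 2 fell (Foxa1 and Cited1), against 1 and 1 without both muscle-rich arrays. None of 9 luminal progenitor genes passed in limma (3 had an unadjusted p below 0.05), and without both muscle-rich arrays 1 rose and 1 fell. None of 20 interferon-induced genes passed (1 unadjusted), nor any of 6 Schwann cell genes (2 unadjusted, and 2 rose without both muscle-rich arrays) or of 2 erythroid genes (0 unadjusted).

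WT glands were read over the same days to see whether any of this differed by genotype. In WT, 883 genes rose (5.24%) and 811 fell (4.81%). With each array centred on its median the WT split was 1034 and 538, against 1492 and 1143 in KO. Without WT P3 replicate 1 the WT counts were 227 and 349, without WT P7 replicate 1 473 and 523, without WT P7 replicate 2 584 rises, and without WT P7 replicate 3 508 falls. Of the genes called, 1214 were called in both genotypes, 42.6% of the KO calls and 71.7% of the WT calls, all with the same sign. Of the 2848 KO calls, 2777 (97.5%) had the same sign in WT. Across genes the 2 differences correlated with r = 0.71, a description over genes, which are not independent.

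The difference between the genotypes was tested directly, and 0 genes passed in limma in this fit and in all of the alternatives tried, while 466 of 16865 had an unadjusted p below 0.05. The smallest adjusted p was 0.495, for Tph1, the enzyme that makes serotonin in the gland. Tph1 read 9, 8.77 and 9.41 in KO P3 and 9.42, 9.18, 9.41, 9.22 and 9.62 in KO P7, which overlap (0.31 ± 0.21), and its WT difference was 1.80 ± 0.22 (limma adjusted p = 6.55e-06). The 18 respiratory chain falls of KO stood beside 2 in WT (medians -0.40 and -0.11), and the 14 matrix rises beside 3 (medians 0.41 and 0.06), but no member's difference between genotypes passed. The KO counts were 8 respiratory falls without KO P3 replicate 3 and 8 matrix rises without KO P3 replicate 1. Brown adipocyte genes had medians of opposite sign, -0.96 in KO and 0.62 in WT, and Cox7a1 differed by -2.46 in KO and 0.17 in WT. Their WT scores overlapped between stages, at 1.05, -0.73 and 0.46 at P3 and -0.22, 1.41, 1.43 and 0.40 at P7. None of these genes passed the test of the genotype difference either. Milk genes had 5 rises in WT, myoepithelial 10, endothelial 9, and cholesterol genes 9 falls. In WT the rises were, for example, Olah 2.51 ± 0.57, Igf2 1.75 ± 0.23, Erbb4 2.05 ± 0.29 and Fmod 2.02 ± 0.24 (limma adjusted p = 0.00505, 2.66e-05, 5.33e-05 and 4.17e-06). A p that misses the threshold does not show that the genotypes were alike.

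**Figure D4:**
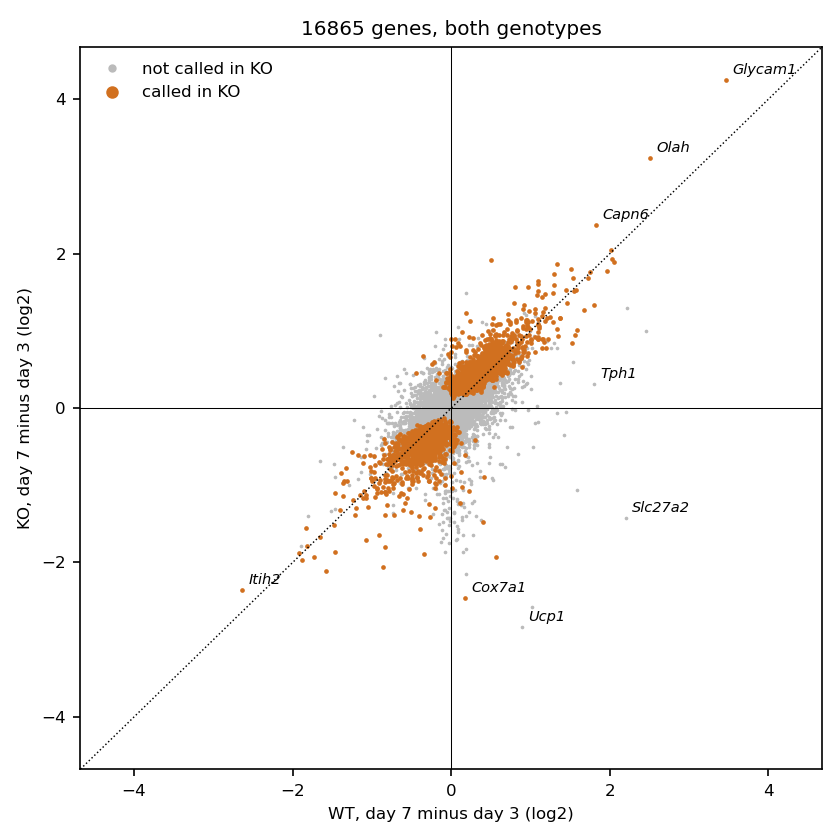
P7 minus P3 difference (log2) of each of 16865 genes in WT glands (x axis) and KO glands (y axis), with genes called in KO in orange and the dotted line marking equal differences. Most called genes lie in the quadrants of shared sign (97.5%), and Ucp1 and Slc27a2, which were not called, lie off the line.

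Across the KO stages, given as means without a test, the P7 arrays were a peak for some rises and a step for others. Glycam1 averaged 6.93, 7.03, 11.28, 12.68 and 12.94 from P0 to P15. Olah averaged 12.16 and Pigr 10.94 at P15, their highest means. Capn6 had its highest mean at P7, 8.70 ± 0.45 (SD, n = 5), against 7.70 ± 0.48 (SD, n = 3) at P10 and 7.17 ± 0.22 (SD, n = 4) at P15, and Reln and Igf2 were also highest at P7. Itih2 was lower still at P10 (5.52), and Mvd was higher at P3 than at any other stage. The P15 means include an array labelled KO whose Ptpn1 lay in the WT range.

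**Figure D5:**
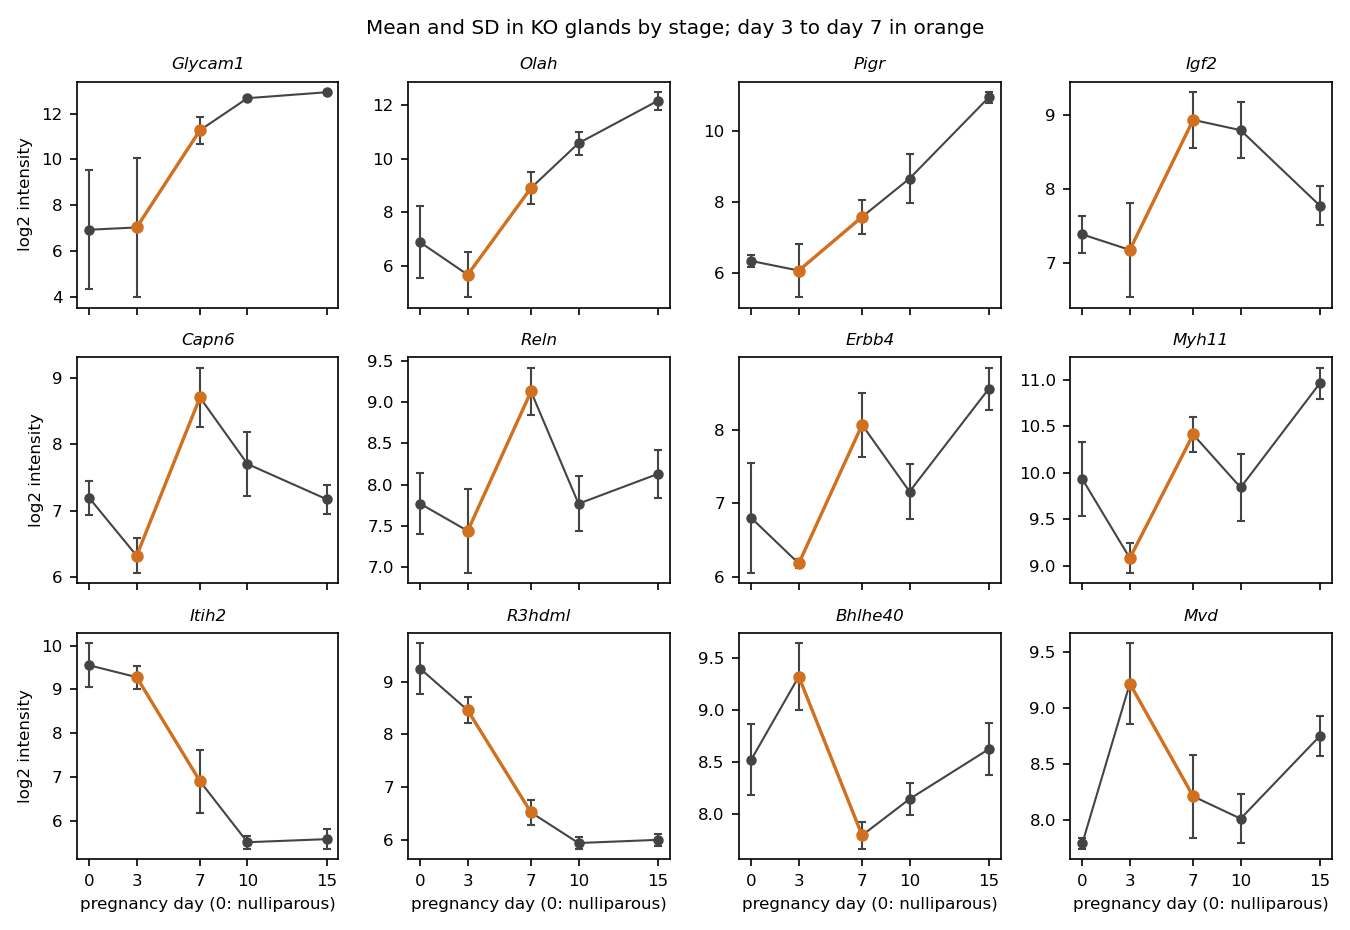
Mean log2 intensity with SD (y axis) of 12 genes in KO glands at P0, P3, P7, P10 and P15 (x axis, pregnancy day; 4, 3, 5, 3 and 4 arrays), with the step from P3 to P7 in orange. Capn6 peaks at P7 at 8.70, while the means of Glycam1, Olah and Pigr are highest at P15.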

How the data were processed

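Total RNA of mammary glands was amplified, labelled as sense-strand cDNA and hybridised to Affymetrix whole-transcript arrays, per the labels' protocols. The authors' deposited table covers 34760 probe sets, and its values were taken as log2 intensities from their range (2.1 to 13.71). The submitters' processing notes name affy. How background, summarisation and normalisation were handled is not given in the sources used here.

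Probe sets with exactly 1 symbol were used (21640), the brightest per gene, and 16865 of 19937 genes passed the filter (above 4.96, the 25th percentile, in at least 3 arrays). Group means over the 37 arrays, and their differences, were estimated with limma 3.58.1 under R 4.3.3 (two-sided). Tested on simulated data of 16865 genes, 200 of them changed, this comparison recovered 96% of log2 changes of 1 and 60% of 0.5. Of the calls made 4.29% were false. The noise was normal and independent between arrays, without shifts shared by many genes such as those of the muscle-rich arrays. These shares therefore do not carry over to the 2848 calls of the real comparison.

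The members, the 38 gene lists (770 entries, 719 measured) and the tests were chosen with earlier results of these data known. Named genes were Ptpn1, the 12 largest rises and falls whose arrays do not overlap, outside muscle and predicted genes, up to 4 called or else 2 uncalled members per list, and 10 genes of smallest p for the genotype difference. Further list members, Csn2, Csn1s1, Wap, Elf5, Ucp1, Tnfrsf11a and the genes with values only as means were named after their values were seen. Array alternatives are in the closing section. RefSeq promoters matched 13255 of the tested genes.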

Additional observations from a re-analysis of the deposited data

Results flagged for a closer look

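Among the 182 gene and list values checked in the 5 KO P7 arrays, 9 had an array whose gap to the nearest other, as a share of the whole range, was above Dixon's critical value for 5 samples. Chance flags about 1 in 20 groups.

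The skeletal muscle score of 1.78 in replicate 3 stood far above the others (-0.41 to -0.20), and in the same array Rasd1, a small GTPase, read 7.68 (others 8.47 to 8.63) and the insulin, IGF and leptin score was 0.04 (0.15 to 0.17). In replicate 4, Fmod read 8.44 (8.79 to 8.93) and Elf5 10.14 (10.54 to 10.69). In replicate 2, Cenpe read 7.21 (7.57 to 7.71) and Lcn2 11.61 (11.17 to 11.29). In replicate 5, Atp2b1 read 11.17 (10.85 to 10.92) and the myoepithelial score was 0.35 (-0.01 to 0.07).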

How the results depend on the processing

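No alternative gave a call for the difference between genotypes. Against 1613 rises and 1235 falls, KO counts with 1 array left out ranged from 1069 to 1543 rises and from 786 to 1244 falls, and WT counts, against 883 and 811, from 227 to 816 and from 349 to 702. With array weights KO falls were 2228, and WT had 1424 rises and 1409 falls. With both muscle-rich arrays out and only the compared groups fitted, chosen after seeing the data, KO had 1030 rises. Centring arrays on their median gave 538 WT falls. With the replicate block KO had 1350 rises and 959 falls. The deviations of genes from their group means correlated at 0.097, -0.165 and -0.078 between same-numbered arrays of P3 and P7. Between differently numbered arrays they correlated at -0.37 to 0.325, so these values show no pairing by number. The other alternatives kept KO counts within 1.5 times, and no alternative moved the median of all genes by more than 0.0128. Of 144 named genes 118 kept their side of the threshold without both muscle-rich arrays, 23 lost and 3 gained a call. Uncalled differences changed sign for Bank1 (0.156 with the epithelial score as covariate, and -0.45 to 0.042 with 1 array left out), Alas2 (0.017 with the muscle score as covariate, and -0.67 to 0.21), Pdgfrb (-0.05 to 0.11) and Wap (-0.45 to 1.46). The cause was not tested.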

Other observations

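Genes over 1 on the log2 scale whose call held with each KO array left out, and without both muscle-rich arrays, numbered 61 higher and 35 lower at P7. Those below were picked from them after their values were seen. Higher at P7 were Tsc22d3, known as GILZ (1.19), Ddit4, an inhibitor of mTORC1 (1.44), Ccn2, a matrix-bound growth factor (1.59), Dll1, a Notch ligand (1.17), Angpt2, an angiopoietin (1.09), Lama1, a laminin chain (1.09), the epithelial mucin Muc4 (1.57), the sodium channel subunit Scnn1g (1.27) and the imprinted gene Peg3 (1.09). Lower were Wfdc2, a secreted WAP-domain protein (-1.39), Ptn, the growth factor pleiotrophin (-1.13), Tnfaip6, which binds hyaluronan (-1.19), Mogat1, an enzyme of triglyceride synthesis (-1.17), Atp5k, of the ATP synthase (-1.09), and Tomm5, of the mitochondrial import pore (-1.09).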
